A study of Mus musculus with 4 samples.

Results

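The cells described here are those the authors named EMT-like in the tumor of PKA activated mice, 238 of the 2638 annotated cells of that tumor (9.02%, exact 95% Clopper-Pearson interval 7.96 to 10.2) and of 15445 annotated cells in the series. They were taken by the authors' final class label for each cell. The class coincides with the authors' cluster 4, and an earlier column of the same deposited table calls every one of its cells unknown. The other cells of the tumor were 2157 Luminal Progenitor 1, 177 Mature Luminal and 66 Lumino-Basal cells.

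The series holds 4 single-cell libraries of MMTV-PyMT mouse mammary tissue, 1 each from hyperplasia and tumor of PKA activated and of wild type mice. In MMTV-PyMT mice the MMTV promoter drives the polyoma middle T antigen in the mammary epithelium, in every group including the wild type. PKA is the cAMP-dependent protein kinase, and the labels do not say by which allele or agent it was activated. The labels name no treatment of any group, and the hyperplastic glands came from mice of 8 to 9 weeks. The tumors came from mice of 16 to 20 weeks in the sample labels and of 22 weeks in the series design. Tumors were dissociated and cells sorted by FACS before loading, with no sorting markers named. The number of mice behind a library is not stated, so no difference below has a replicate check, no test was made, and intervals cover counting error only.

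The mammary ducts and alveoli hold an inner luminal and an outer basal, contractile layer. Luminal progenitors carry the alveolar programme that ends in milk secretion, with alpha-lactalbumin, caseins and lactoferrin, while mature luminal cells carry hormone receptors. Epithelial to mesenchymal transition (EMT) is the loss of epithelial junctions and keratins with the gain of mesenchymal genes such as vimentin, under transcription factors of the Snail, Zeb and Twist families.

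The genes that set these cells apart fall into a group that was high, which includes Lalba, Aqp5, Car12 and cartilage collagens, and a group that was low, which includes NF-kB response and immediate early genes and keratins. As examples, the 250 bases before the start site of Col9a1 and Car12 from the high group, and of Nfkbia from the low group, are given from the RefSeq promoters of GRCm38.p6, 5' to 3' on the strand of the gene. The capitals mark a match to the NF-kB motif.

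Col9a1: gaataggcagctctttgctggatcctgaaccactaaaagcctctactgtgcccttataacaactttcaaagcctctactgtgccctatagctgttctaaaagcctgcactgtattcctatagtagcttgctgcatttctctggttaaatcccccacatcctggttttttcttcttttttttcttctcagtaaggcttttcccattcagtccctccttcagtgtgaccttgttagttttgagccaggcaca
Car12: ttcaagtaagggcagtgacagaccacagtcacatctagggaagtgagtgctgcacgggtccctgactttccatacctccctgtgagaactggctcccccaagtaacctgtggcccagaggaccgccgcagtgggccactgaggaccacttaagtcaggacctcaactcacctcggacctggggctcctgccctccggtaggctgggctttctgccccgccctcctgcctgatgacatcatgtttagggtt
Nfkbia: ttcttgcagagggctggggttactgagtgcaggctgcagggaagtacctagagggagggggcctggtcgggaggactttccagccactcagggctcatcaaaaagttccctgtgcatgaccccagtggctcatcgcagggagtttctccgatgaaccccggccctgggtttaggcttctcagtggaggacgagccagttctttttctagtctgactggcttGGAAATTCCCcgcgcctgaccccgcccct

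The Col9a1 window is chr1:24177360-24177609 on the plus strand, the Car12 window chr9:66713436-66713685 on the plus strand, and the Nfkbia window chr12:55492648-55492897 on the minus strand. The genes themselves lie at chr1:24177610-24252684, chr9:66713686-66766845 and chr12:55489410-55492647 of GRCm38 and are protein coding. Both strands of such windows were searched for 6 motifs, which can overlap each other. They were the cAMP response element TGACGTCA, its core CGTCA, the AP-1 motif TGANTCA, the NF-kB consensus of 10 letters, the STAT motif TTCNNNGAA and the Sox motif ACAANG. Of 32851 RefSeq promoter windows, these were in 1.55%, 17.8%, 6.75%, 7.25%, 7.02% and 36.3%. Per gene, with any of its windows, the shares were 1.77%, 19.8%, 7.82%, 8.23%, 8.13% and 39.9% of 27025 genes. Among the 25 genes highest in the EMT-like cells, the numbers with a match in a window were 0, 5, 1, 9, 1 and 11 in the same order. Among the 10 of the 15 lowest genes with an entry, they were 0, 0, 2, 2, 1 and 1. The NF-kB form used was taken after the counts of a stricter one were known. The stricter form, with T fixed at 2 positions, was in 4.11% of windows, 4.71% of genes, 3 of the 25 highest and 2 of the 10 lowest genes, so that the count among the highest genes depends on the form and nothing is read from it. The Car12 window held no match to any of the 6, and the Nfkbia window held the NF-kB motif from 29 to 20 bases before the start, on the other strand. The Col9a1 window shown held a Sox motif, from 25 to 20 bases before the start, and a window of another RefSeq start of Col9a1 held an NF-kB match. Base composition was not matched, and a match is a run of letters and not a bound site.

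The EMT-like cells were shallower than the other classes and had a higher mitochondrial share of their UMIs. Their median was 4135 UMIs (unique molecular identifiers, 1 per captured transcript) and 1900.5 genes per cell, with a range of 1499 to 16086 UMIs. Luminal Progenitor 1 cells had medians of 5970 UMIs and 2425 genes, Lumino-Basal cells 5918.5 and 2541, and Mature Luminal cells 8362 and 3309. Mitochondrial UMIs made up a median of 2.65% in the EMT-like cells, 1.57% in Luminal Progenitor 1, 1.76% in Mature Luminal and 0.905% in Lumino-Basal cells. No EMT-like cell was above 10% and 20 were above 5%. Of the barcodes of EMT-like cells, 2, 2 and 1 also occurred among the annotated cells of PKA hyperplasia, WT hyperplasia and WT tumor.

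**Figure D1:**
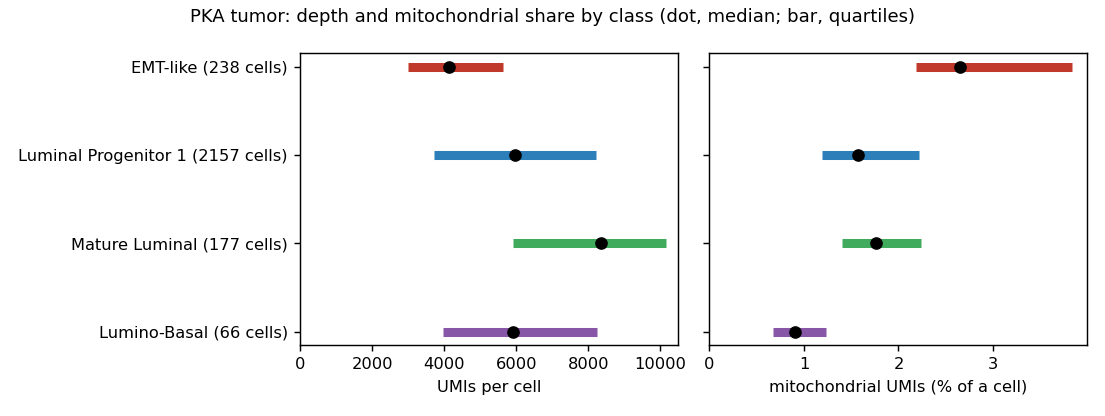
UMIs per cell (left) and mitochondrial UMIs in % of a cell (right) for the 4 classes of PKA tumor, as the median (dot) and the lower to upper quartile (bar). The EMT-like cells have the lowest median depth, 4135 UMIs, and the highest median mitochondrial share, 2.65%.

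The expression data go against the name EMT-like in its markers. Luminal keratins were lower than in the other cells, and most epithelial junction genes were also lower, few of them past 2-fold. EMT transcription factors and mesenchymal genes were near the level of the other cells. Of its 4 markers in the series design, Trim29 (a ubiquitin ligase of basal epithelia) and Cldn6 (an embryonic claudin) had 0 UMIs in the 1083453 UMIs of the class. Vim, the intermediate filament of mesenchymal cells, had 28 UMIs, or 25.8 CPM (UMIs scaled to the same total in every class), against 29.6 in Luminal Progenitor 1 and 303 in Lumino-Basal cells. Sox4, a transcription factor, was at 339.7 CPM, the lowest of the 4 classes, against 789 in Luminal Progenitor 1, 1254 in Mature Luminal and 1081 in Lumino-Basal cells. The epithelial adhesion genes Epcam and Cdh1 were at 2797 and 149.5 CPM, against 3101 and 181.2 in the other cells. Of 29 epithelial junction genes, 19 were lower and 10 higher, and they summed to 6822 against 8859 CPM. By the 2-fold mark defined below, 1 was past it higher and 2 lower, with a median log2 ratio of -0.26. Of all 17387 measured genes, 0.380% were past it higher and 1.61% lower, with a median of 0.01. The 4 luminal keratins summed to 3157 against 8546 CPM. Of 6 measured EMT transcription factors, 0 were past 2-fold in either direction, and the list summed to 113 against 123 CPM. Of the 12 on that list, 7 had no UMI in the EMT-like cells. Of 14 measured mesenchymal genes, 0 were past 2-fold in either direction, and the list summed to 168 against 186 CPM. With every cell thinned to 2000 UMIs, 99.1% of the 217 EMT-like cells kept had an Epcam UMI, and 3.23% had a Vim UMI, against 3.80% of 1999 Luminal Progenitor 1 cells. Only 4 of 63 Lumino-Basal cells had a Vim UMI, so the Vim level of that class rested on few cells. Of the basal markers, Krt5 and Snai2 were at 0 and Krt14 at 19.4 CPM. The name is kept here as the authors' label for their cluster 4, with no cell type read from it.

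Most markers of cells outside the epithelium were near 0. The 6 B cell and the 6 adipocyte markers had 0 UMIs, and summed levels were 16.6 CPM for 10 macrophage, 6.46 CPM for 8 endothelial and 4.62 CPM for 8 fibroblast markers. The 6 neutrophil markers summed to 306 CPM, all of it S100a8, with the other 5 at 0, and the same list summed to 295.5 CPM in the other cells of the tumor. The 6 pericyte markers summed to 78.5 CPM, against 42.5 in Luminal Progenitor 1, 85.2 in Mature Luminal and 31.7 in Lumino-Basal cells. Among them Rgs5 had 23 UMIs in 12 EMT-like cells, or 21.2 against 1.91 CPM in the other cells, which is under the 25 CPM asked of a call below. The 7 Schwann cell markers summed to 394 CPM, against 290, 157 and 237 in those classes, most of it Sox10 (248 against 172 in the other cells), a transcription factor also found in mammary epithelium. Its relative Sox8 was at 41.5 against 5.04 CPM, 8.24-fold higher (log2 3.04, 2.48 to 3.59). Doublets were not removed, and the part of doublets in these levels was not tested.

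Counts were summed over the cells of a class and set against the sum over the other annotated cells of the tumor. A gene counts as past 2-fold when the ratio of CPM, with 10 CPM added to each side, is at least 2 and the higher side has at least 25 CPM. Since the classes were made from the expression of these same genes, what follows describes the class and supports nothing about it. Of 6079 genes, 54 were past 2-fold higher (0.888%) and 234 past 2-fold lower (3.85%) in the EMT-like cells. With TMM scaling the numbers were 28 and 299, so that 8.56% of the genes past 2-fold were higher in place of 18.8%.

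On the scale with 10 CPM added, by which they were ranked, the highest were Car12, St6galnac4, St6galnac6, Aqp5 and Col9a1. Lalba, which encodes alpha-lactalbumin of the lactose synthase complex, was at 6911 CPM in the EMT-like cells, 3526 in Luminal Progenitor 1, 133 in Mature Luminal and 178 in Lumino-Basal cells. Aqp5, an apical water channel of secretory glands, was at 1747, 656, 306 and 124 CPM in the same order. Car12, a carbonic anhydrase of the cell surface, was at 241, 74.9, 11.2 and 12.2 CPM. Each was highest in the EMT-like cells and next in Luminal Progenitor 1. Against all other cells, the ratio was 2.21 for Lalba (log2 1.14, 1.11 to 1.18), 2.86 for Aqp5 (1.52, 1.45 to 1.59) and 3.57 for Car12 (1.84, 1.64 to 2.03). Folr1, the folate receptor alpha, stood just short of the 2-fold mark, at 952 CPM against 550, 73.3 and 26.8, a ratio of 1.93 (0.95, 0.86 to 1.04).

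Collagens of cartilage were also among the high genes. Col9a1, a chain of collagen IX, was at 323 CPM in the EMT-like cells, 123 in Luminal Progenitor 1, 11.2 in Mature Luminal and 9.76 in Lumino-Basal cells, a ratio of 2.95 against the other cells (1.56, 1.39 to 1.73). Its partner chain Col9a2 was at 234 CPM against 101 in the other cells, and Col11a1, which nucleates cartilage fibrils with collagen II, at 277 against 107. The ratio of Col9a3, the remaining collagen IX chain, was below 2-fold, at 195.7 against 105 CPM. Cnmd, which encodes chondromodulin, was at 41.53 against 14.03 CPM. Of 9 measured genes in the list of cartilage matrix, 4 were past 2-fold higher and 0 lower, with a median log2 ratio of 0.84, where the median of all 17387 measured genes was 0.01 and 0.380% were past 2-fold higher. With TMM scaling 2 were past it. Measured here means at least 10 UMIs over both sides. Of all 18 genes on the list, 8 had no UMI in the EMT-like cells, among them Col2a1, the gene of collagen II.

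The rest of the 25 highest genes, of at least 100 CPM, spread over several roles. Ion channels were represented by Kcnn4, a calcium-activated potassium channel (709 CPM against 303 in the other cells), and Ano1, a calcium-activated chloride channel (390 against 175). Glycan and secretory pathway genes were St6galnac4 and St6galnac6, which are sialyltransferases (123 against 32.9 and 184 against 53.1), and Fam20a, the partner of a secretory kinase (176 against 73.2). Tsc22d3, a glucocorticoid-induced regulator, was at 105 against 34.8 CPM, and G0s2, an inhibitor of triglyceride lipase, at 189 against 66.9 CPM. The others were Rbp7, Tmem37, Tspan8, Npnt, Cldn10, Dkkl1, Crispld2, Emid1, Pradc1, Secisbp2l and the class I genes H2-Q6 and H2-Q7, whose near-identical copies make their counts uncertain. Of these, Cldn10, a claudin of tight junctions, was not highest in the EMT-like cells, since Mature Luminal cells had 288 CPM against 221.

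**Figure D2:**
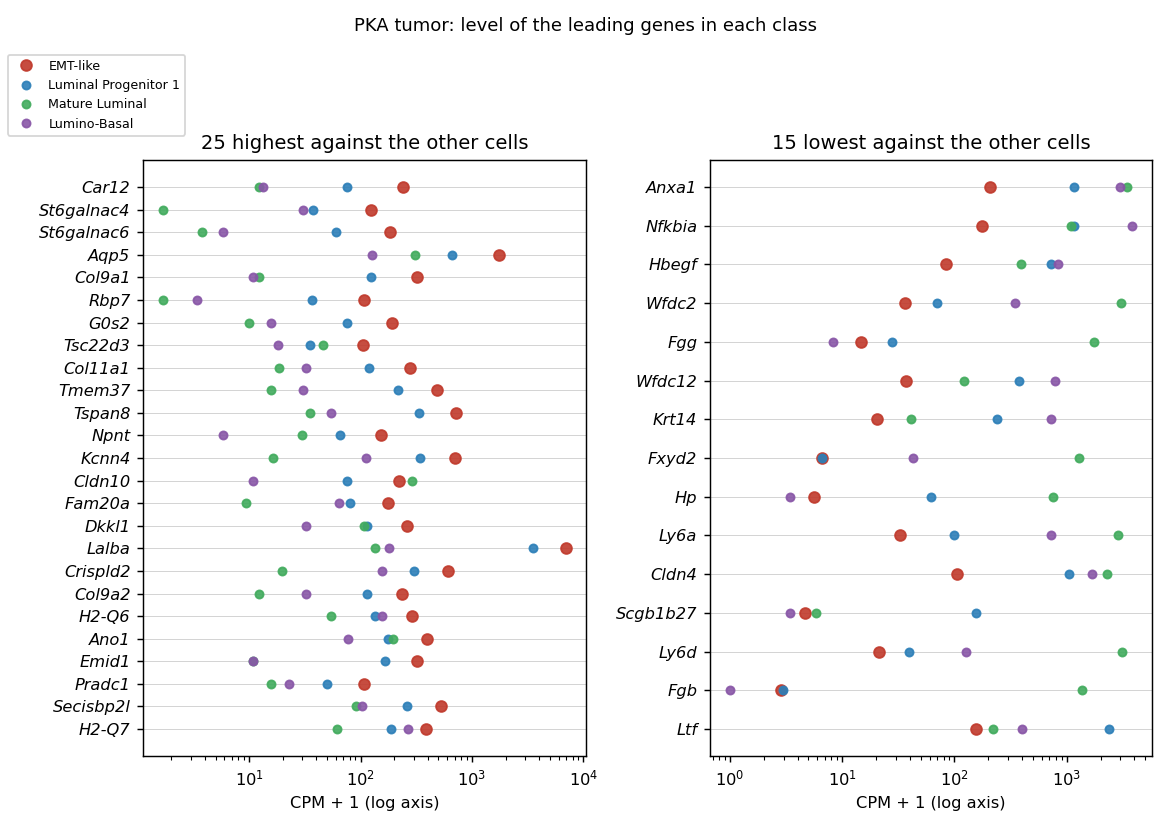
Level of the 25 highest and 15 lowest genes of the EMT-like cells in each class of PKA tumor, as CPM + 1 on a log axis, with 1 point per class. Among the 25 highest, the Luminal Progenitor 1 point is usually the nearest to the EMT-like point, while several of the 15 lowest, such as Fgb and Fxyd2, are high in Mature Luminal cells and close together in EMT-like and Luminal Progenitor 1 cells.

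The lowest genes were of several kinds. Ltf, the iron-binding milk protein lactoferrin, was at 155 CPM in the EMT-like cells, 2359 in Luminal Progenitor 1, 221 in Mature Luminal and 395 in Lumino-Basal cells, 13.6-fold lower than in the other cells (log2 -3.77, -4.00 to -3.55). Cldn4, another claudin, was at 105 CPM against 1043, 2295 and 1691 in those classes. Nfkbia, the inhibitor that NF-kB itself induces, was at 175 CPM against 1167, 1098 and 3839, or 7.02-fold lower than in the other cells. Hbegf, a ligand of the EGF receptor, Anxa1, an annexin, and Krt14, the basal keratin, were 8.39-fold, 6.83-fold and 11.9-fold lower. Fgb and Fgg (fibrinogen chains), Fxyd2 (a sodium pump subunit) and Ly6d were among the 15 lowest through the Mature Luminal cells: Fgb was at 1.85 CPM in EMT-like and 1.95 in Luminal Progenitor 1 cells, against 1356 in Mature Luminal cells. Scgb1b27, a secretoglobin, was at 3.69 CPM against 154 in Luminal Progenitor 1, but 5 cells held 97.8% of the Luminal Progenitor 1 UMIs.

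Lists of genes with a shared role show what moved together. Of 18 measured immediate early genes, the fast-induced transcription factors and phosphatases, 11 were past 2-fold lower and 0 higher, with a median log2 ratio of -1.22, against 1.61% lower of all measured genes. Atf3 was at 435 CPM against 2382 in the other cells, Klf4 at 99.7 against 588, Junb at 1980 against 4935, and Fos, which was not past 2-fold, at 6068 against 8256. Of 13 NF-kB response genes, 7 were past 2-fold lower (median -1.27), among them Cxcl1 at 23.1 against 161 CPM and Nfkbiz at 83.1 against 336. All 4 luminal keratins were past 2-fold lower (median -1.72), with Krt8 at 867 against 2509 and Krt18 at 1979 against 4560 CPM. Of 13 mature luminal genes, 8 were past 2-fold lower, and Cited1 and Gpx3 had 0 UMIs. That count comes through the Mature Luminal cells: against Luminal Progenitor 1 alone, 0 of 10 were past 2-fold (median -0.05), and the list summed to 1144 CPM in the EMT-like cells and 742 in Luminal Progenitor 1.

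Other lists had medians nearer to 0. Some still held more genes past 2-fold than all measured genes did, at 0.380% higher and 1.61% lower. Of 17 genes of protein folding in the endoplasmic reticulum, 0 were past 2-fold, with a median of 0.54; Creld2 was at 114 against 61.3 CPM and the regulator Xbp1 at 1356 against 865. The 15 antigen presentation genes had 1 higher and 0 lower (median 0.31), and B2m was at 8868 against 5251 CPM. Of 18 milk protein genes, 2 were higher and 3 lower: the lower were Ltf, Spp1 (osteopontin, 1220 against 3502) and Mfge8 (615 against 1301), while the casein Csn3 was at 42614 against 24893 CPM. Of 18 secreted defence and salivary-type genes, 0 were higher and 6 lower (median -0.49). Among luminal progenitor genes, Elf5, the alveolar regulator, was at 260.3 against 263.4 CPM and Kit at 143 against 187, whereas Cd14 was at 402 against 1177. The 20 PKA pathway genes had 0 past 2-fold in either direction (median 0.04), with the catalytic subunit Prkaca at 74.8 against 76.9 and the regulatory subunit Prkar1a at 277.8 against 272.9 CPM. Of 14 CREB target genes, 3 were lower (median -0.49), namely Nr4a1, Dusp1 and Fosl2, the first 2 of which are also on the immediate early list.

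Genes of G2 and mitosis summed to 216 CPM in the EMT-like cells and 60.9 in the others, with 3 of 15 measured genes past 2-fold higher. Only 6 of the 238 cells (2.52%, 0.931 to 5.41) had at least 5 UMIs of these genes, and they held 208 of the 234 UMIs. Their median depth was 7985.5 UMIs. In Luminal Progenitor 1, 16 cells (0.742%, 0.425 to 1.20) reached 5 UMIs. Lumino-Basal cells had a sum of 231.9 CPM, above that of the EMT-like cells, with 84 of its 95 UMIs in 1 cell.

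Against Luminal Progenitor 1 alone, 36 of 5991 genes were past 2-fold higher (0.601%) and 195 past 2-fold lower (3.25%). Mature Luminal and Lumino-Basal cells stood farther away. Against Mature Luminal cells 638 of 6818 genes were higher (9.36%) and 901 lower (13.2%), and against Lumino-Basal cells 645 of 6608 were higher (9.76%) and 880 lower (13.3%). The correlation of log2(CPM + 10) over 8910 genes, which describes likeness and shares library and depth, was 0.960 with Luminal Progenitor 1 of the same tumor. It was 0.939 with the EMT-like cells of WT tumor, 0.929 with Luminal Progenitor 1 of WT tumor, and 0.656 to 0.839 with the 8 classes of both hyperplasias. It was 0.823 with Lumino-Basal and 0.772 with Mature Luminal cells of PKA tumor.

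**Figure D3:**
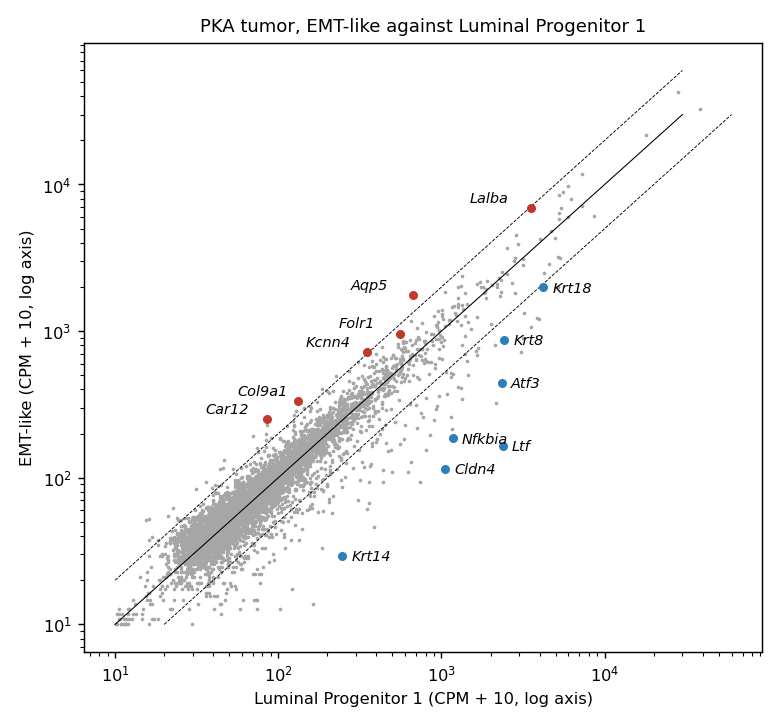
Level of each gene in EMT-like cells against Luminal Progenitor 1 cells of PKA tumor, as CPM + 10 on log axes, with the line of equality (solid) and the 2-fold marks (dashed). Most genes lie between the marks, with 36 above and 195 below, and named genes are in red (high) and blue (low).

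At equal depth the marker genes were still found in more of the EMT-like cells. With each cell thinned to 2000 UMIs and shallower cells left out (21 EMT-like and 158 Luminal Progenitor 1 cells), Aqp5 was found in 85.3% of EMT-like (79.8 to 89.7), 53.6% of Luminal Progenitor 1, 33.1% of Mature Luminal and 14.3% of Lumino-Basal cells. Lalba was found in 75.6%, 62.3%, 13.4% and 20.6% in that order, and Folr1 in 77.0%, 55.3%, 11.6% and 1.59%. Col9a1 was found in 37.3%, 16.2%, 1.74% and 1.59%, and Car12 in 31.3%, 12.8%, 2.33% and 1.59%. Each 1.59% was 1 of 63 Lumino-Basal cells, with an interval of 0.04 to 8.53. The Mature Luminal shares of Col9a1 and Car12 were 3 and 4 of 172 cells. The EMT-like shares lay above those of the other classes for all 5 genes. The part of free RNA in these shares was not tested. Before thinning, the EMT-like shares were 93.7%, 83.6%, 88.7%, 55.5% and 47.5% for Aqp5, Lalba, Folr1, Col9a1 and Car12.

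The cells were not alike among themselves. Of the 217 thinned EMT-like cells, 161 (74.2%) had UMIs of at least 3 of the 5 marker genes, 3 cells had none, and 19 had all 5. Among Luminal Progenitor 1 cells 692 of 1999 (34.6%) had at least 3. Lalba ranged from 0 to 91 UMIs per thinned EMT-like cell, with quartiles of 1, 5 and 20, and from 0 to 124 in Luminal Progenitor 1 with quartiles of 0, 2 and 9. The 2 distributions therefore overlapped over nearly their whole range.

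Across the 16 classes of at least 50 cells in the 4 libraries, the EMT-like cells of PKA tumor ranked 1 for Lalba, Col9a1 and Folr1 and 2 for Car12 and Aqp5, behind the EMT-like cells of WT tumor. The next levels of Col9a1 were 163 CPM in Luminal Progenitor 2 of WT hyperplasia, 159 in that of PKA hyperplasia and 123 in Luminal Progenitor 1 of PKA tumor. Over the 16 sums, the genes whose level was most like that of Col9a1 among 3528 genes were Alpl (r = 0.928), Etnk1 (0.906), Rbp7 (0.894), Stac2 (0.885) and Car12 (0.884).

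Luminal Progenitor 1 in this tumor is 4 of the authors' clusters, which differed in the values that came near those of the EMT-like cells. This comparison was chosen after the values were seen, and the clusters were made from the same genes. Cluster 3 (519 cells) was like the EMT-like cells in depth, with a median of 3508 UMIs and 2.64% mitochondrial UMIs, and in the immediate early and NF-kB response genes and Krt8. Its summed immediate early genes were at 17132 CPM against 20628 in the EMT-like cells, Nfkbia at 182 against 175, Atf3 at 500 against 435 and Krt8 at 914 against 867. It was unlike them in Ltf, at 2414 against 155 CPM, in Col9a1, at 106 against 323, and in Lalba, at 2715 against 6911.

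Cluster 5 (111 cells) was like the EMT-like cells in part of the high group and in Ltf. It had Col9a1 at 333 CPM against 323, Folr1 at 1158 against 952, Car12 at 174 against 241, Kcnn4 at 778 against 709 and Ltf at 248 against 155. It was lower in Lalba, at 4133 against 6911 CPM, and in Aqp5, at 1161 against 1747. Its median depth was 7031 UMIs with 1.79% mitochondrial UMIs, and its immediate early genes summed to 42067 CPM. Cluster 1 (1468 cells, 6789 UMIs, 1.36% mitochondrial) was unlike them in these values, with Col9a1 at 111 CPM, Ltf at 2457 and immediate early genes at 47642. Cluster 7 (59 cells, 1997 UMIs, 5.52% mitochondrial) had the highest immediate early sum, 66642 CPM, and Ltf at 6336.

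**Figure D4:**
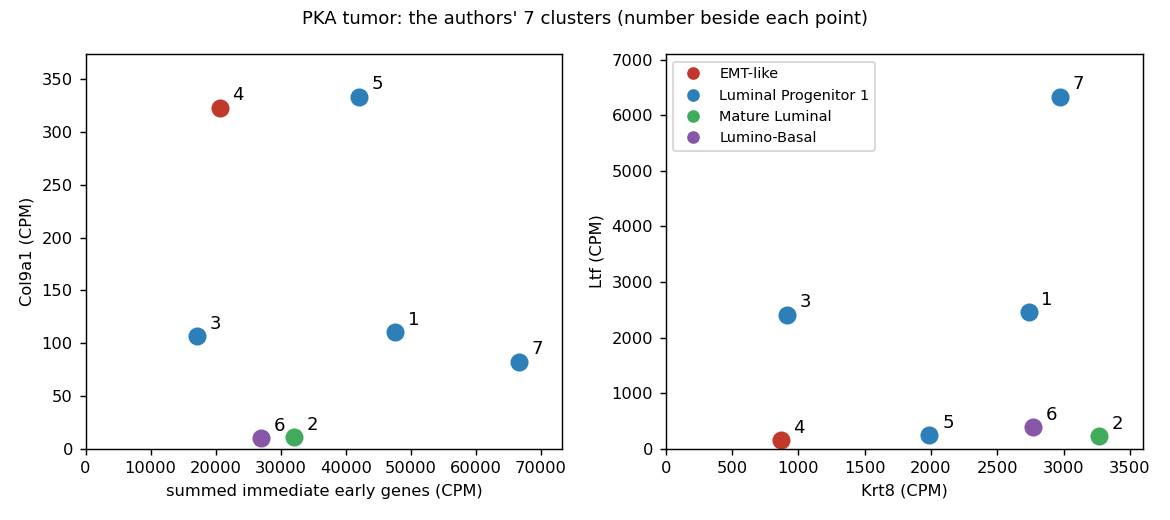
The authors' 7 clusters of PKA tumor, with 1 numbered point each, by summed immediate early genes and Col9a1 (left) and by Krt8 and Ltf (right), all in CPM. The EMT-like cells (4) sit beside cluster 3 in immediate early genes and Krt8 and beside cluster 5 in Col9a1 and Ltf.

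Counted over genes, the EMT-like cells had 51 of 6018 genes past 2-fold higher (0.847%) and 102 lower (1.69%) against cluster 3, and 184 of 6025 in each direction (3.05%) against cluster 5. Against cluster 1 the numbers were 73 (1.21%) and 217 (3.61%) of 6010, and against cluster 7 they were 1030 (15.1%) and 1024 (15%) of 6804. Of the 25 highest genes, 18 were past 2-fold higher against cluster 3 and 7 against cluster 5, with median log2 ratios of 1.30 and 0.45. Of the 15 lowest genes, 7 were past 2-fold lower against cluster 3 and 5 against cluster 5, with medians of -0.70 and -0.08. These leading genes were ranked against a pool with 519 cells of cluster 3 and 111 of cluster 5. They therefore cannot say which cluster was the nearer. Of 17 immediate early genes, 0 were past 2-fold against cluster 3 (median 0.27) and 10 were lower against cluster 5 (median -1.05). Of the NF-kB response genes, 0 of 13 were past 2-fold against cluster 3 (median -0.05) and 4 of 11 were lower against cluster 5 (median -0.30). Of 8 measured cartilage matrix genes, 1 was past 2-fold higher and 0 lower against cluster 3 (median 0.48). Against cluster 5, 1 of 8 was higher and 2 lower (median -0.31), and the list summed to 1100 against 1201 CPM. Among all measured genes, 0.570% were past 2-fold higher and 0.916% lower against cluster 3. Against cluster 5 the shares were 2.44% higher and 1.86% lower. The correlation over 7209 genes was 0.957 with cluster 3, 0.934 with cluster 1, 0.927 with cluster 5 and 0.727 with cluster 7. The sums differ in depth, and cluster 7 is the thinnest.

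The genes that led each contrast differed. Against cluster 3, the highest were Cldn10 (221 against 29.5 CPM), Ncald, a calcium sensor (113.5 against 22.7), St6galnac4, Scgb2b27, Rbp7, St6galnac6, Emid1, Npnt, Kcnn4 and Col9a1. Among the lowest were Ltf, Wfdc12, Slpi, Krt14, Chrdl2, Spp1, Ly6a, Mfge8 and Clu. Slpi, a secreted protease inhibitor, was at 312 against 3438 CPM and Spp1 at 1220 against 7098. Against cluster 5, the highest were Lgals7 (331 against 37.2), Bglap3 (1829 against 332), Txnip, H2-Q6, Crispld2, Alpl, Echdc2, Dkkl1, H2-Q7 and Wfdc18. The lowest were Lif, a cytokine (4.61 against 119), Sparc, a matrix protein (5.54 against 110), Csrnp1, Nr4a1 (209 against 1727), Dusp5, Apod, Cldn4, Timp3, Hbegf and Ifrd1. Cldn10 was thus higher than in cluster 3 and lower than in cluster 5, where it was at 477 CPM.

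Within the EMT-like cells, some high genes stood at similar levels in shallow and deep cells and others did not. In 3 bins of equal size by UMIs, Lalba was at 6890, 7198 and 6754 CPM from the shallowest to the deepest bin and Col9a1 at 347, 304 and 326. Tspan8 was at 784, 948 and 573 CPM in the same order, and Tmem37 at 579, 509.5 and 440.4. Luminal Progenitor 1 cells in the same UMI ranges had 2255, 3234 and 3753 CPM of Lalba. In 3 bins by mitochondrial share, summed immediate early genes were at 21540, 21612 and 17717 CPM in the EMT-like cells from the lowest to the highest bin. In Luminal Progenitor 1 cells of the same mitochondrial ranges they were at 45605, 29699 and 21975 CPM, so that the 2 classes came closest in the highest bin, from 3.38% to 8.39%. In cells of 1.5% to 3.5% mitochondrial UMIs alone, 153 EMT-like and 1032 others, 10 immediate early genes were past 2-fold lower and 3 cartilage genes higher. In cells of 2500 to 6000 UMIs alone, 9 and 3 were. The part of depth and mitochondrial share in the low immediate early genes was not tested.

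Clustering the tumor's cells anew did not return the class as a unit. At resolution 1, the Leiden method gave 15 clusters, and the one with the most EMT-like cells held 122 of the 238 (51.3%) among 284 cells. Most of its other members came from the authors' clusters 3 (98 cells) and 1 (58 cells), and it was at 6859 CPM of Lalba and 1584 of Aqp5. A further 43 EMT-like cells lay in a cluster of 143 and 29 in a cluster of 156, which also held 93 of the 111 cells of the authors' cluster 5.

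The tumor of wild type mice also held cells named EMT-like, 768 of 5181 (14.8%, 13.9 to 15.8), all of its cluster 4. The cluster numbers did not correspond between the tumors. Cluster 1 was Luminal Progenitor 1 in PKA tumor and Mature Luminal in WT tumor, and cluster 2 was Mature Luminal and Lumino-Basal. The shared number 4 therefore does not make the EMT-like cells of both tumors 1 cluster. Neither class rests on its own markers, so the comparison is of these 2 clusters and not of a cell type. The WT cells had a median of 2860 UMIs and 2.68% mitochondrial UMIs. With 1 library each, mouse, batch and genotype cannot be told apart.

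Against the other cells of their own tumor, the WT cells had 130 of 6237 genes past 2-fold higher (2.08%) and 307 lower (4.92%). Of the PKA tumor's 54 higher genes, 22 were higher in WT tumor too, which is 40.7% of the 54 and 16.9% of the 130. Of its 234 lower genes, 134 were lower in WT tumor, 57.3% of the 234 and 43.6% of the 307. The shared higher genes included Lalba, Aqp5, Car12, Kcnn4, Tspan8, Tmem37, G0s2 and Col11a1. Of the 25 highest genes, 22 lay on the same side in WT tumor and 11 were past 2-fold there, and of the 15 lowest, 13 and 12. The high levels of Col9a1 and Crispld2 against the other cells were in PKA tumor: in WT tumor, Col9a1 was at 64.2 CPM in EMT-like and 57.8 in the other cells, and the log2 ratio of Crispld2 was -0.29.

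**Figure D5:**
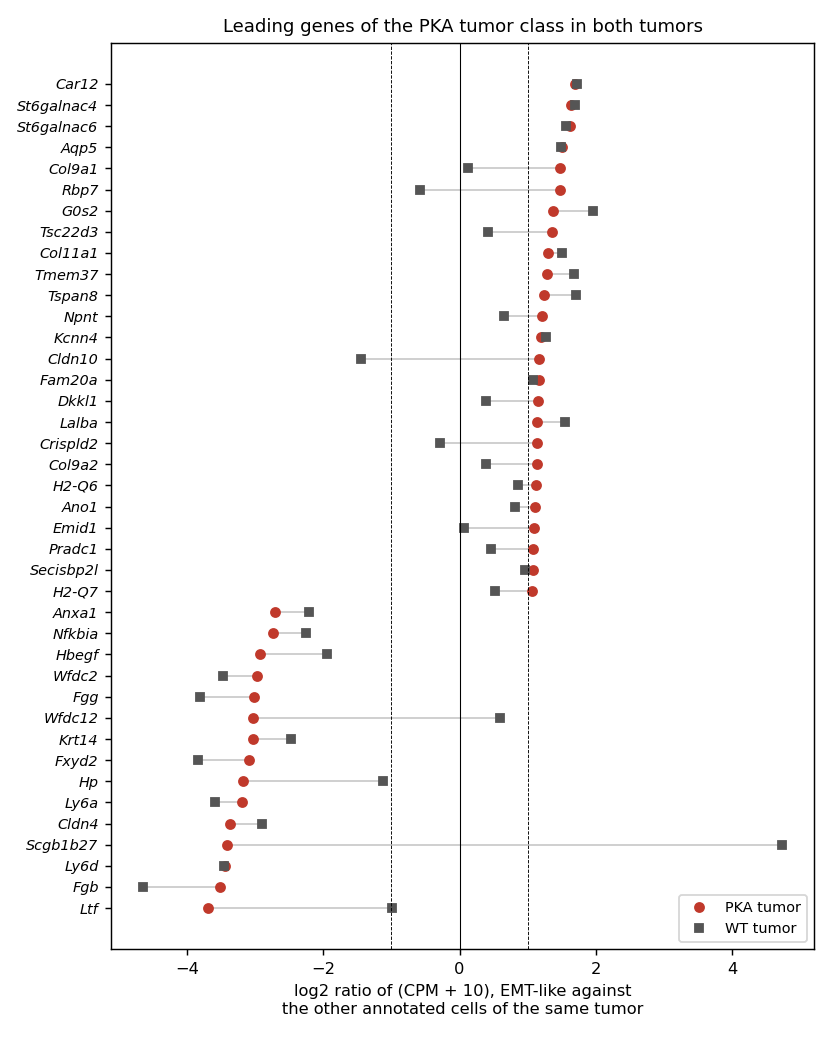
log2 ratio of (CPM + 10) of EMT-like cells against the other annotated cells of the same tumor, for the 25 highest and 15 lowest genes of PKA tumor, in PKA tumor (circles) and WT tumor (squares), with dashed lines at 2-fold. Of the 25 highest, 22 lie above 0 in WT tumor and 11 beyond the dashed line, while Cldn10 and Scgb1b27 lie on opposite sides in the 2 tumors.

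Set directly against the WT EMT-like cells, the PKA cells had 199 of 6140 genes past 2-fold higher (3.24%) and 175 lower (2.85%). With TMM scaling the numbers were 154 and 242, so that 38.9% of these genes were higher in place of 53.2%. The 10 highest were Cldn10 (221 against 5.31 CPM), S100a8, Saa2, Crispld2 (605 against 33.5), Saa1, Apoc1, H2-Q7, Npy, Col9a1 (323 against 64.2) and Acsl4, an acyl-CoA synthetase (431 against 88.7). Several rested on few cells. The 5 richest PKA cells held 69.0% of the UMIs of the acute phase gene Saa1, 57.9% of those of the neuropeptide gene Npy and 57.8% of those of S100a8, against 22.2% for Cldn10. Of 7 measured cartilage matrix genes, 5 were higher and 0 lower (median 1.40, against 0.02 for all genes). Lalba was at 6911 against 1607 CPM and Folr1 at 952 against 787, while Aqp5 was lower, at 1747 against 2400 CPM.

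The 10 lowest against the WT cells were led by secretoglobins. Scgb2b27 was at 202 against 6066 CPM, and 603 of the 768 WT cells had a UMI of it, whereas 5 cells held 62.5% of the WT UMIs of Scgb1b27. Scgb2b26 had 0 UMIs in the PKA cells, where 3 UMIs is the limit a count of 0 allows, and 163 CPM in the WT cells. The others were Hp (haptoglobin), Chrdl2 (a BMP antagonist, 12.0 against 177), Plb1, Sectm1b, Cpm, Col25a1 and Igfbp4. Of 13 measured genes on the list of secreted defence and salivary-type genes, 1 was higher and 7 lower (median -1.06). Ltf was at 155 against 881 CPM. Of 10 p53 targets, 3 were lower and 0 higher. The genes that were low in the PKA cells differed in how near they stood to the WT cells. Of 17 immediate early genes, 0 were higher and 2 lower (median -0.20), where 1.67% of all measured genes were lower, and the 4 luminal keratins had 0 past 2-fold. Nfkbia was at 175 against 271 CPM and Cldn4 at 105 against 149.6, whereas Krt14 was past 2-fold lower, at 19.4 against 72.4 CPM, as were Ltf, Scgb1b27 and Chrdl2.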

How the data were processed

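Groups were taken from the sample titles, with 1 library per group. The deposited matrices give UMI counts of each gene in each barcode, not normalized, and the authors' per-cell tables give UMI and gene counts, the mitochondrial UMIs as a fraction, a cluster number and a cell class. Per the submitters' processing notes, Cell Ranger, STAR 2.5.3a and featureCounts of Subread 1.6.0 were used with GRCm38/mm10. The sources used here name no filter that left 2638 of 2934 barcodes of PKA tumor annotated, and other barcodes were not analysed here. Monocle2 gave the classes from markers, per the labels' series design. Doublets were not removed.

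Here, UMIs were summed per class and scaled to CPM. Ratios carry exact conditional binomial and shares exact Clopper-Pearson 95% intervals. The members, the 55 gene lists and the comparisons were chosen with earlier results of these data known. Named genes were the 25 highest and 15 lowest against the other cells, the 10 highest and 10 lowest against the WT EMT-like cells (at least 100 CPM, without mitochondrial, ribosomal, haemoglobin, predicted, Xist, Tsix and Y-linked genes), the 5 marker genes, list members and the 5 genes most like Col9a1. The 10 highest and lowest genes against the authors' clusters 3 and 5 were added after the values were seen, and a gene among them is not reported here. Of 25 genes among the highest, 25 had a RefSeq promoter entry. Counts of 5642 genes were also simulated for the comparison with the other cells. The interval lay on the true side for 98.0% of 102 genes changed 2-fold, of which 18.6% were past 2-fold. Of 98 genes changed 4-fold, 98.0% were past 2-fold. These counts were Poisson draws from 1 pooled profile with no spread between cells, as the interval assumes. The simulation therefore checks the arithmetic and cannot say how well the interval fits real cells. Alternatives were other added and minimum CPM, TMM, other totals, the mean of cells, other cell filters and thinning. The tools were scanpy 1.11.5 for clusters, edgeR 4.0.16 (R 4.3.3) for TMM, and NumPy 2.4.6, pandas 2.3.3, SciPy 1.17.1 and matplotlib 3.10.9 in Python 3.11.15.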

Additional observations from a re-analysis of the deposited data

Results flagged for a closer look

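Of the named genes, 3 were past 2-fold in both tumors with opposite signs when the EMT-like cells were set against the other cells of the same tumor, on the scale of log2(CPM + 10). Cldn10 was at 1.17 in PKA tumor and -1.45 in WT tumor. Scgb1b27 was at -3.42 in PKA tumor and 4.74 in WT tumor, and 5 cells held 97.8% of its UMIs in Luminal Progenitor 1 of PKA tumor and 62.5% of those in the EMT-like cells of WT tumor. Chrdl2 was at -1.57 in PKA tumor and 1.23 in WT tumor. With 1 library per tumor these differences were not tested.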

How the results depend on the processing

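No paired analysis was possible because each group is 1 library and no replicate could be left out. Depth limits the thin sums most: the Lumino-Basal class had 66 cells and cluster 7 had 59. Against the other cells, the higher genes numbered 116 with 1 CPM added, 12 with 50 CPM added, 34 with a minimum of 100 CPM, 28 with TMM and 252 against the unweighted mean of the 3 other classes; the lower genes numbered 108 with 50 CPM added, 127 with a minimum of 100 CPM and 564 against the unweighted mean. Against Luminal Progenitor 1, the higher genes numbered 92 with 1 CPM and 8 with 50 CPM added, 21 with a minimum of 100 CPM, 18 with TMM, 58 without mitochondrial, ribosomal and milk genes in the totals and 76 after thinning to 2000 UMIs. The lower genes there numbered 88 with 50 CPM added and 115 with a minimum of 100 CPM. Among alternatives chosen after seeing the data, cells of 2500 to 6000 UMIs gave 70 higher genes, cluster 1 alone 73, cluster 5 alone 184 and cluster 7 alone 1030, with 1024 lower against cluster 7 and 102 lower against cluster 3. Against WT EMT-like cells, the higher and lower genes numbered 300 and 276 with 1 CPM added, 66 and 60 with 50 CPM added, and 103 and 69 with a minimum of 100 CPM. The cause of these moves was not tested beyond what the setting itself changes.

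Other counts over all genes stayed within 1.5 times their value, as did the share of the class (9.14% with cells of at least 500 genes and at most 10% mitochondrial UMIs) and its largest Leiden cluster (168 cells at resolution 0.5 and 96 at resolution 2). The share of cells with a UMI depends on the thinning by construction: Lalba was at 84.3% at 4000 UMIs, Col9a1 at 26.1% and 52.1% at 1000 and 4000 UMIs, Car12 at 19.8% and 48.8%, Aqp5 at 74.4% and 96.7%, and Folr1 at 54.2% and 92.6%. The 3 G2/M genes past 2-fold became 0 without the cells of at least 5 such UMIs, and 13 of 98 counts over gene lists moved by more than 1.5 times.

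Of 1583 values of single genes under other settings, 1210 stayed within the counting error of the main value. A further 359 moved farther than that, and 14 were counted as changed in sign. A change of sign was counted only where the main ratio was at least 2-fold in size. In cells of 2500 to 6000 UMIs, Scgb1b27 was at 0.26 against the other cells and 0.27 against Luminal Progenitor 1. Against cluster 5 alone, the log2 ratio was -0.04 for Col9a1, -0.23 for Rbp7, -0.28 for Col11a1, -0.13 for Kcnn4, -1.08 for Cldn10, -0.08 for Fam20a, 0.28 for Scgb1b27, 0.89 for Ly6a, 0.24 for Krt14 and 0.17 for Wfdc12. Against cluster 7 alone it was -0.03 for Ano1 and 0.73 for Ly6a.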
